A study of Mus musculus with 451 samples.

Results

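The insulin-like growth factor (IGF) system was followed in single tail tendon cells through 10 genes: the ligands Igf1 and Igf2, the receptors Igf1r and Igf2r, and the binding proteins Igfbp2, Igfbp3, Igfbp4, Igfbp5, Igfbp6 and Igfbp7. The rule takes the rows of the count table by gene symbol and uses no measured value, and all 10 were found among its 48795 symbols. The cells came from 4-week-old C57BL/6 mice, either wild type (WT) or lacking both copies of Mohawk (Mkx-/-), a homeobox transcription factor of the tendon lineage whose loss gives ectopic bone in mouse tendons. Tail tendons were digested with collagenase, and single cells were caught in separate wells of the Fluidigm C1 high-throughput system. The series held 227 WT and 224 Mkx-/- cells. No label gives the animal or the chip from which a cell came, and each genotype therefore counts as 1 sample: no test between genotypes was made, animal, chip and genotype cannot be told apart, and every interval given here is a 95% exact interval that covers counting error only. Where a count was 0, the limit given is that of 3 counts and not an exact interval.

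IGF1 and IGF2 are secreted peptides that act mainly through the IGF1 receptor, a tyrosine kinase that feeds the PI3K-AKT and MAPK routes and promotes growth and matrix synthesis. The IGF2 receptor lacks kinase activity and removes IGF2 from the cell surface. Outside the cell most IGF is held by IGF binding proteins, which extend its life, keep it from the receptor or hold it in the matrix until a protease cuts them. IGFBP7 binds IGF weakly and is often classed as a relative of the other binding proteins. In tendon, IGF1 is known as a stimulus for cell proliferation and collagen synthesis.

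In WT tendon Igfbp3, Igfbp5 and Igfbp7 had the log2 ratios largest in size between the tenocyte-like and progenitor-like cells described below. Igfbp3 and Igfbp7 were higher in the tenocyte-like cells and Igfbp5 was lower. Relative to the median of all genes, Igfbp4 (1.76) and Igf1 (1.18) exceeded Igfbp5 (-0.94) in size, so the choice of Igfbp5 depended on the scaling. The 250 bases before the start sites of Igfbp3, Igfbp5 and Igfbp7 are shown so that these promoters can be set side by side. The sequences are from RefSeq on GRCm38.p6, 5′ to 3′ on the strand of the gene: Igfbp3 at chr11:7213924-7214173 (minus strand), Igfbp5 at chr1:72874866-72875115 (minus strand) and Igfbp7 at chr5:77408046-77408295 (minus strand). The window of Igfbp3 lies within the annotated span of that gene, ahead of an internal start site. Capitals mark GGGCGG on either strand, the core of a GC box.
Igfbp3: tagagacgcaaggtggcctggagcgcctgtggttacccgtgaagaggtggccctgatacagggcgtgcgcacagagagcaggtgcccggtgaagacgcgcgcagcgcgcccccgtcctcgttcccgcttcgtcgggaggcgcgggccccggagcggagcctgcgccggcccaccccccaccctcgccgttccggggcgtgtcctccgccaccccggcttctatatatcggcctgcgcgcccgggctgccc
Igfbp5: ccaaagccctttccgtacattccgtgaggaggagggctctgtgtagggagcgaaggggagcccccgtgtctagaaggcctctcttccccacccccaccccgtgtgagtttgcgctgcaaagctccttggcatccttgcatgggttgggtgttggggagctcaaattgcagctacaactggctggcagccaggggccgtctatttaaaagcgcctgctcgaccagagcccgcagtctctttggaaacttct
Igfbp7: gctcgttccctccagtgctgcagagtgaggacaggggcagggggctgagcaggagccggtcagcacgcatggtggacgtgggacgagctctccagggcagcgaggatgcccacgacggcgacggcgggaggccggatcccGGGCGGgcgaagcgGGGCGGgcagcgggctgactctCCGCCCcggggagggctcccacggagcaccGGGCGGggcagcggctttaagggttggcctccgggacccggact

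The window of Igfbp7 held 4 copies of GGGCGG, at positions 110, 96, 74 and 44 before the start site, and those of Igfbp3 and Igfbp5 held none. GGGCGG also lay before Igf1r, Igf2r, in 1 of the windows of Igfbp2 and in 2 of those of Igf2, so that 6 of the 14 windows of the 10 genes held it. Over all 32851 promoter windows of the same length, 32.7% held at least 1 copy. The window of Igfbp7 was 74% G or C, that of Igfbp3 73.2% and that of Igfbp5 58.8%, against a median of 52.4% over all windows. Another 3 motifs were searched on both strands, namely the TATA box TATAAA, the E-box variant with the letters CACGTG, and the motif ACANNTGT, a palindrome bound by Iroquois homeobox proteins, the family to which Mkx is nearest. None of these lay in the windows of Igfbp3, Igfbp5 and Igfbp7, and they lay in 12.4%, 6.02% and 6.31% of all windows. Among the other genes of the system, TATAAA was found before Igfbp4 and Igfbp6 and CACGTG before Igf2r and Igfbp2. ACANNTGT lay in 0 of the 14 windows. These matches describe the letters only.

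Depth was alike in the genotypes: 13630536 reads in WT (median cell 51788, range 13076 to 335813) and 14145394 reads in Mkx-/- (median cell 56121, range 14226 to 294791). The targeted gene, Mkx, stood at 33.8 counts per 1000000 reads (CPM) in WT against 15.5 CPM in Mkx-/- cells, where 29 of 224 cells still held a read of the gene. Which part of the gene was removed is not given in the sources used here, so the count over the whole gene is a limited check of the labels. Cells were clustered without the 72 genes of the lists used here, so that levels of IGF genes did not draw the clusters. A cluster with high Cd44, Thy1, Ly6a, Fstl1 and Tppp3 was called tendon progenitor cell-like (TPC-like; 100 WT and 94 Mkx-/- cells). A cluster with high Col1a1, Col1a2, Sparc, Tnmd, Fmod and Col11a2 was called tenocyte-like (TC-like; 74 and 80 cells), and its leading genes also included the cartilage collagen Col2a1. The remaining cluster (53 and 50 cells) was highest in the tenoblast markers Itm2a and Lgals3 but had Mmp10 and Mmp3 among its leading genes. It rested on only 2 fixed markers and is called Itm2a-high. Col1a1, Col1a2 and Sparc took 30.9% of the reads of WT and 21.7% of Mkx-/- TC-like cells, against 2.71% and 3.24% in TPC-like cells. In 20 wells, 11 of WT and 9 of Mkx-/- cells, there were reads of at least 3 markers of 1 other cell type (endothelial, mural, leukocyte, muscle or nerve sheath).

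Together the 10 genes held 96040 reads, 0.346% of all reads. The summed level was 3632 CPM in WT against 3289.7 CPM in Mkx-/- cells. Igfbp5 alone made up 55% of the reads of the system in WT and 38.4% in Mkx-/- cells, while the part of Igf1 was 11% and 16.7% and that of Igfbp7 was 7.27% and 16.3%. Genes were compared with each other on the scale of CPM per kilobase of exon. Where along a transcript the reads fell is not given in the sources used here, so this scale is approximate at best. It would not hold if the reads fell mainly near an end of the transcript. On this scale the order in WT cells was Igfbp5 (333), Igfbp6 (312), Igfbp7 (217.6), Igfbp4 (117.6), Igfbp3 (60.4), Igf1 (40.3), Igf1r (12.2), Igf2 (11.6), Igf2r (3.94) and Igfbp2 (0.079). In Mkx-/- cells Igfbp7 stood first at 442 CPM per kilobase, before Igfbp6 (355) and Igfbp5 (210), and Igf1 stood before Igfbp3 (55.5 and 49.8). Igf1r and Igf2 were neighbours in both orders. All binding proteins other than Igfbp2 thus stood at higher levels per length than the receptors in both genotypes. By reads alone, without the lengths, the order was another one. Igfbp5 then stood first and Igf1 next in both genotypes, with 17849 and 7791 reads in Mkx-/- cells, before Igfbp7 with 7577. The first place of Igfbp7 in Mkx-/- cells therefore depended on the scale.

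Igf1 (chromosome 10, 87858265 to 87937047, plus strand on GRCm38), the ligand with most reads, was higher in Mkx-/- than in WT cells. The level of a WT cell ran from 0 to 9456 CPM with a median of 162.96 CPM, and that of a Mkx-/- cell from 0 to 4975 CPM with a median of 330 CPM. The cells of the genotypes overlapped, and the quartiles lay at 12.5 and 469 CPM in WT against 90.4 and 815 CPM in Mkx-/- cells. Summed over cells, Igf1 stood at 400.2 CPM (interval 389.7 to 411) in WT against 551 CPM (539 to 563) in Mkx-/-, so the log2 ratio, here always Mkx-/- over WT unless clusters are compared, was 0.46 (0.41 to 0.51). Cells with a read of Igf1 made up 76.2% of WT against 95.1% of Mkx-/- cells. After every cell was thinned to 28000 reads, with 23 WT and 18 Mkx-/- cells left out as too shallow, the shares were 72.1% (65.4 to 78.1) and 92.7% (88.3 to 95.9).

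By cluster, the ratio of Igf1 was 0.80 (0.71 to 0.89) in TPC-like cells, from 343 CPM to 597 CPM, and the median cell stood at 51.2 and 238 CPM. Itm2a-high cells stood at 272 and 439.9 CPM (0.69, 0.55 to 0.84). TC-like cells stood at 492 and 556 CPM (0.18, 0.11 to 0.25). The median over all genes in TC-like cells was itself 0.20, beside 0.06 in Itm2a-high cells and a value within 0.01 of 0 in TPC-like cells, and relative to that median the ratio of Igf1 in TC-like cells was -0.03. A single WT TPC-like cell held 20.7% of the Igf1 reads of its cluster, and the TPC-like ratio was 1.01 once the cell with most Igf1 reads was dropped from each genotype. Whether the ratio differed between clusters was not tested.

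Igf2 (chromosome 7, 142650768 to 142666816, minus strand), the imprinted fetal ligand, was found in few cells. Reads were present in 22.9% of WT against 19.2% of Mkx-/- cells, so that the median cell of each cluster and genotype stood at 0 CPM, and the highest at 3379 and 3479 CPM. Its sum was 64 CPM (59.8 to 68.4) in WT against 59.2 CPM (55.2 to 63.3) in Mkx-/-, and the interval of the ratio, -0.11, spanned 0 (-0.25 to 0.03). The ratios of the clusters had different signs, and the difference between them was not tested. In TPC-like cells Igf2 stood at 77.7 CPM in WT against 28.2 CPM in Mkx-/- (-1.46, -1.75 to -1.18), whereas in Itm2a-high cells it stood at 129.7 and 236 CPM (0.86, 0.66 to 1.07). In TC-like cells the levels were 29.4 and 20.4 CPM, and 1 cell held 54.6% of the Mkx-/- reads. Over all cells the ratio was 0.23 among cells with at least 2500 detected genes. The TPC-like ratio was -0.82 when 10 dimensions were used in the clustering, and in Itm2a-high cells it ranged from 0.32 to 2.06 over the alternatives.

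Igf1r (chromosome 7, 67952257 to 68233668, plus strand), the signalling receptor, ran from 0 to 1390.1 CPM per WT cell and from 0 to 985 CPM per Mkx-/- cell, with a median of 0 CPM in both. Its sum was 54.7 CPM (50.8 to 58.7) in WT against 63.6 CPM (59.5 to 67.8) in Mkx-/-, a ratio of 0.22 (0.08 to 0.36). Cells with a read made up 33.9% and 44.2%, and after thinning 30.9% (24.6 to 37.7) and 36.4% (29.8 to 43.4), where the intervals overlapped. The level was highest in TPC-like cells of both genotypes, at 67.4 and 81.3 CPM. Igf1r was also at 115.9 CPM in the 20 wells with markers of another cell type and 55.3 CPM in the other wells, and without those wells the log2 ratio over all cells was 0.51.

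Igf2r (chromosome 17, 12682406 to 12769706, minus strand), the clearing receptor, was lower in Mkx-/- cells. Its sum was 37.2 CPM (34 to 40.6) in WT against 24.7 CPM (22.2 to 27.4) in Mkx-/-, a ratio of -0.59 (-0.79 to -0.39). The share of cells with a read was alike, 21.6% and 22.3%, and the highest cell held 1816 CPM in WT against 536 CPM in Mkx-/-. By cluster the ratio was -0.66 in TPC-like, -0.30 (-0.68 to 0.09) in Itm2a-high and -0.73 in TC-like cells, and in Itm2a-high cells it was 0.27 once the leading cell of each genotype was dropped. Among cells with at least 2500 detected genes the ratio over all cells was -0.30.

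Igfbp5 (chromosome 1, 72858065 to 72874865, minus strand), a matrix-associated binding protein, held the most reads of the system and was lower in Mkx-/- cells. A WT cell ran from 0 to 14901 CPM with a median of 1317 CPM, and a Mkx-/- cell from 0 to 15430 CPM with a median of 785 CPM. The 2 distributions overlapped, with quartiles at 370 and 3315 CPM in WT and at 174.1 and 1980.3 CPM in Mkx-/- cells. The sums were 1998 CPM (1975 to 2022) and 1262 CPM (1243 to 1280.5), a ratio of -0.66 (-0.69 to -0.64), while almost all cells of either genotype held a read (98.7% and 96.4%). The same sign was seen in each cluster. The levels in WT and Mkx-/- cells were 3341 and 2298 CPM in TPC-like, 1564 and 1303 CPM in Itm2a-high, and 1102 and 520 CPM in TC-like cells. The log2 ratios were -0.54 (-0.57 to -0.51), -0.26 (-0.33 to -0.19) and -1.09 (-1.14 to -1.03), and relative to the median of all genes the TC-like ratio was -1.29. In Itm2a-high cells the ratio was 0.020 when the listed genes were kept in the clustering.

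Igfbp7 (chromosome 5, 77349240 to 77408045, minus strand), a secreted protein of vessel walls and matrix, was higher in Mkx-/- cells. A WT cell ran from 0 to 1517 CPM with a median of 119.1 CPM, and a Mkx-/- cell from 0 to 2576 CPM with a median of 286 CPM. The sum was 264 CPM (255 to 273) in WT against 536 CPM (524 to 548) in Mkx-/-, a ratio of 1.02 (0.96 to 1.08). Endothelial cells are known to express Igfbp7, but the paper identified none among its single cells. Of their 6 markers, 6 had reads in each genotype, which summed to 94.1 CPM in WT against 33.9 CPM in Mkx-/-. Reads of at least 3 of these markers lay in only 2 WT and 2 Mkx-/- wells. The 4 nerve sheath markers, all with reads, summed to 92.4 CPM in WT against 144.1 CPM in Mkx-/-. The sums of the other lists were lower in Mkx-/- cells: mural (55.2 and 44.1 CPM), leukocyte (137.6 and 105.3 CPM) and muscle (2.57 and 0.64 CPM). By cluster the nerve sheath sum was 10.04 and 28 CPM in TPC-like, 80.1 and 151.7 CPM in Itm2a-high, and 161.4 and 223.1 CPM in TC-like cells. Without the 20 wells with markers of another cell type the ratio of Igfbp7 was 1.09, and the part of marker reads in the remaining wells was not tested. Here, too, the sign was the same in each cluster. The levels were 51.2 and 136.5 CPM in TPC-like cells (log2 ratio 1.41, 1.20 to 1.63), 333 and 468 CPM in Itm2a-high cells (0.49, 0.36 to 0.62), and 406 and 839 CPM in TC-like cells (1.05, 0.98 to 1.12). Relative to the median of all genes the TC-like ratio was 0.85. In TC-like cells every Mkx-/- cell held a read, the lowest at 115.2 CPM, and the lower quartile of the Mkx-/- cells (525 CPM) lay close to the upper quartile of the WT cells (557 CPM).

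**Figure D1:**
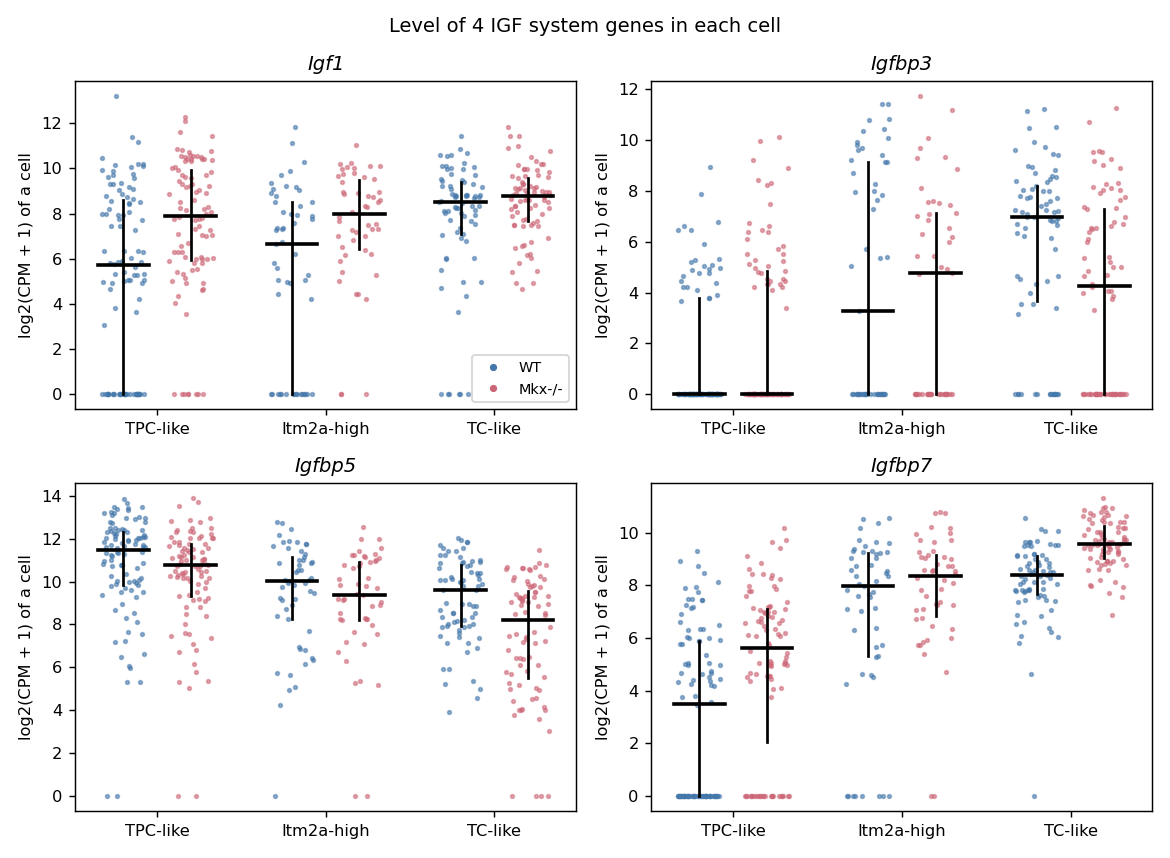
Levels of Igf1, Igfbp3, Igfbp5 and Igfbp7 in each cell, as log2(CPM + 1), by cluster and genotype; a point is a cell, the thick bar the median and the vertical line the range between quartiles. In TC-like cells the Igfbp7 points of Mkx-/- cells lie mostly above the WT points (medians 762 and 332 CPM) and the Igfbp5 points below them (medians 291 and 786 CPM), with overlap in each case.

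Igfbp3 (chromosome 11, 7206086 to 7215498, minus strand), the main carrier of IGF in serum, had ratios of opposite sign in the clusters. In TPC-like cells it stood at 16.7 CPM (13.3 to 20.7) in WT against 60.1 CPM (53.4 to 67.4) in Mkx-/-, a ratio of 1.85 (1.49 to 2.22). These levels rested on 83 and 292 reads. In TC-like cells the order was the other way, with 268 CPM (256 to 281) in WT against 148.8 CPM (139.9 to 158.2) in Mkx-/-, a ratio of -0.85 (-0.96 to -0.74). The median TC-like cell stood at 124.04 CPM in WT against 18.3 CPM in Mkx-/-. In Itm2a-high cells the levels were 344 and 372 CPM, and 1 Mkx-/- cell held 48% of the reads, without which, and without the leading WT cell, the ratio was -0.62. Over all cells the log2 ratio was -0.28 (-0.36 to -0.20). The TPC-like ratio was 1.06 when the listed genes were kept in the clustering and 0.90 when genes past 2-fold between genotypes were left out of it. The share of TPC-like cells with a read, after thinning, was 23% (14.6 to 33.2) in WT against 34.9% (24.9 to 45.9) in Mkx-/-, and that of TC-like cells was 73% (61.4 to 82.6) and 50% (38.6 to 61.4).

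Igfbp4 (chromosome 11, 99040005 to 99052655, plus strand), an inhibitory binding protein that the protease PAPP-A cuts, stood at 278 CPM (269 to 287) in WT against 244 CPM (236 to 252) in Mkx-/-, a ratio of -0.19 (-0.26 to -0.12). The ratio was -0.41 in TPC-like, -0.76 in Itm2a-high and -0.06 (-0.14 to 0.02) in TC-like cells, and in Itm2a-high cells it was 0.20 when the listed genes were kept in the clustering. There the median cell also stood the other way, at 0 CPM in WT against 38.7 CPM in Mkx-/-. Igfbp6 (chromosome 15, 102144186 to 102149512, plus strand), which prefers IGF2, was found in nearly every cell, 98.2% of WT and 97.8% of Mkx-/-, with medians of 302 and 366 CPM per cell. Its log2 ratio over all cells was 0.19 (0.13 to 0.24). Igfbp2 (chromosome 1, 72824480 to 72852474, plus strand) held 2 reads, both in 1 WT TC-like cell, and 0 reads in 224 Mkx-/- cells, which allows a level of up to 0.212 CPM (3 reads of the summed library). No ratio was formed for it.

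**Figure D2:**
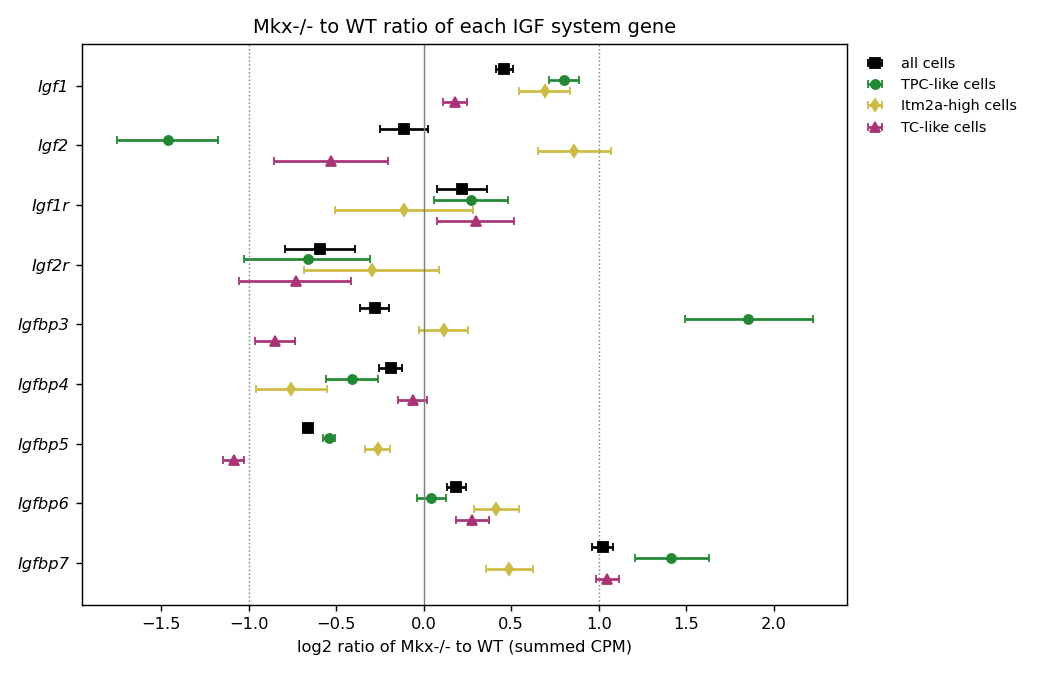
Log2 ratio of summed CPM in Mkx-/- to WT cells for the 9 genes with at least 100 reads, over all cells and in each cluster; bars are 95% exact intervals for counting error and dotted lines mark a 2-fold difference. Igfbp7 lies to the right of 0 and Igfbp5 to the left in each cluster, whereas Igfbp3 lies at 1.85 among TPC-like and at -0.85 among TC-like cells.

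Of the 10 genes, 9 held at least 100 reads over both genotypes, the filter set for counts and medians over genes. Over all cells 4 were higher and 5 lower in Mkx-/- cells, with a median log2 ratio of -0.11, beside a median of 0.05 over all 10963 genes that passed the same filter. Past 2-fold there was 1 gene higher, Igfbp7, and 0 lower, where 7.23% of all genes were past 2-fold higher and 6.12% lower. Since the interval of Igfbp7 reached 0.96, it lay at the threshold. Within TPC-like cells 2 genes (Igfbp3 and Igfbp7) were past 2-fold higher and 1 (Igf2) lower, where 8.19% and 7.42% of all genes were. Within Itm2a-high cells there were 0 in either direction, where 11.3% of all genes were higher and 9.54% lower. Within TC-like cells 1 gene (Igfbp7) was higher and 1 (Igfbp5) lower, where 14.1% and 6.71% of all genes were. The median over the 9 genes was 0.04 in TPC-like, 0.11 in Itm2a-high and -0.06 in TC-like cells.

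**Figure D3:**
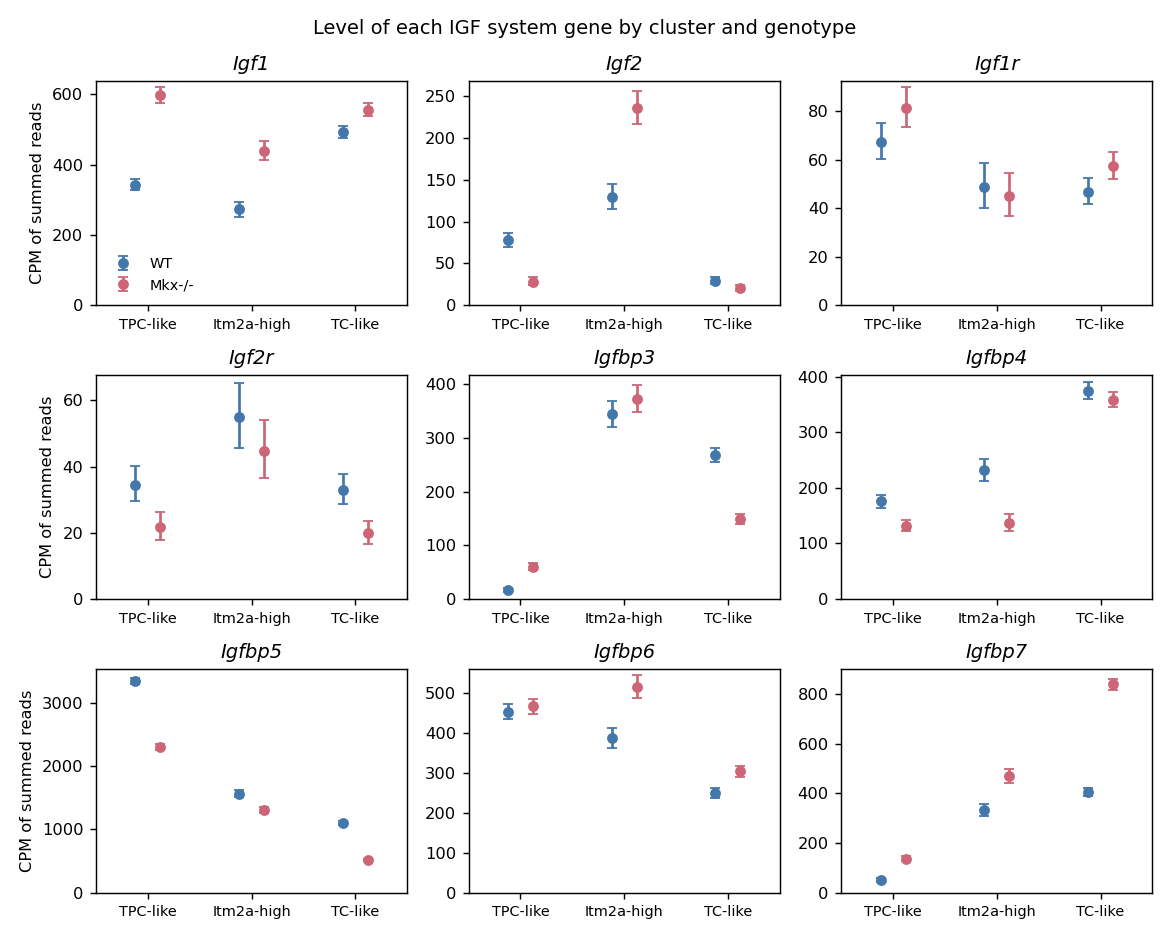
Summed level in CPM of each gene in TPC-like, Itm2a-high and TC-like cells, with WT in blue and Mkx-/- in red; bars are exact Poisson intervals. Igfbp5 stands highest in TPC-like cells and Igfbp7 in TC-like cells of both genotypes, and the scale differs between panels.

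The levels were next compared between the clusters within a genotype, to ask in which cluster each part of the system was found. The median log2 ratio of TC-like to TPC-like cells over all genes was -0.66 in WT and -0.43 in Mkx-/- cells. In WT cells 3 genes were past 2-fold higher in TC-like cells, namely Igfbp3 (16.7 to 268 CPM, log2 ratio 4.01, 3.69 to 4.34), Igfbp7 (51.2 to 406 CPM, 2.99, 2.80 to 3.18) and Igfbp4 (175.4 to 375 CPM, 1.09, 0.98 to 1.21). A further 2, Igfbp5 (-1.60) and Igf2 (-1.40), were past 2-fold lower. Of all genes 7.08% were past 2-fold higher and 34.8% lower. Relative to the median of all genes Igfbp5 was at -0.94 and Igf2 at -0.74. In Mkx-/- cells 3 genes were higher, Igfbp7 (2.62), Igfbp4 (1.44, 1.32 to 1.57) and Igfbp3 (1.31, from 60.1 to 148.8 CPM), and 1 was lower, Igfbp5 (-2.14, -2.20 to -2.09), where 7.94% and 25.3% of all genes were. Igfbp3 was thus 16.1-fold higher in TC-like than in TPC-like cells of WT and 2.48-fold higher in those of Mkx-/-. The WT ratio of Igfbp4 was short of 2-fold under 3 alternatives, at 0.77 with the listed genes kept in the clustering, 0.93 with 10 dimensions and 0.998 with genes past 2-fold between genotypes left out, and 2 genes in place of 3 were then past 2-fold higher.

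The remaining genes differed less between these clusters. Igf1 was at 0.52 in WT (0.43 to 0.61) and -0.10 (-0.17 to -0.03) in Mkx-/- cells, or 1.18 and 0.33 relative to the median of all genes, so that its sign in Mkx-/- cells depended on the scaling. Igfbp6 was lower in TC-like cells of both genotypes at -0.85 and -0.62, or -0.19 and -0.19 relative to that median. Igf1r stood at -0.53 and -0.50, and relative to the median at 0.13 and -0.07, so that its sign depended on the scaling. The intervals of Igf2r (-0.07 and -0.14) spanned 0 in both genotypes, and relative to the median it stood at 0.59 and 0.29. Against TPC-like cells, Itm2a-high cells were higher in Igfbp3 (4.37 in WT and 2.63 in Mkx-/-) and Igfbp7 (2.70 and 1.78). They were also higher in Igf2 (0.74 and 3.06) and Igf2r (0.67 and 1.03) and lower in Igfbp5 (-1.10 and -0.82). The WT value of Igf2r leaned on few cells. In WT Itm2a-high cells its upper quartile was 0 CPM, and the highest cell stood at 1816 CPM. Whether Igf2r stayed higher without that cell was not tested. In WT 2 genes were past 2-fold higher and 1 lower, where 8.47% and 15.8% of all genes were. In Mkx-/- cells 4 were higher and 0 lower, where 9.24% and 16.7% of all genes were. The interval of Igf2r in Mkx-/- cells ran from 0.63 to 1.44, so that it lay at the threshold.

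The cells of each genotype were also ordered along a diffusion pseudotime from the most TPC-like cell, on genes that exclude those of the lists, and cut into 3 equal parts. TPC-like cells made up 92% of the first part in WT and 91.9% in Mkx-/-, and TC-like cells 96.1% and 96% of the last. Igfbp5 stood at 3613, 1795 and 1144 CPM along the WT order and at 2234, 1515 and 542 CPM along the Mkx-/- order, so that it was lower in each later part. Igfbp7 ran the other way, with 42.9, 307 and 372 CPM in WT and 117.01, 471 and 820.1 CPM in Mkx-/- cells. Igf1 stood at 252, 376 and 504 CPM in WT, but at 560, 577 and 530.1 CPM in Mkx-/- cells, in no order along the parts. Igfbp3 stood at 14.7, 253 and 257 CPM in WT and at 73.6, 244 and 153.1 CPM in Mkx-/- cells. Igf2 had its highest level in the first part in WT (113.9 CPM) and in the middle part in Mkx-/- cells (145.7 CPM). Because the order and the clusters were built from the same cells, the parts add no independent evidence.

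**Figure D4:**
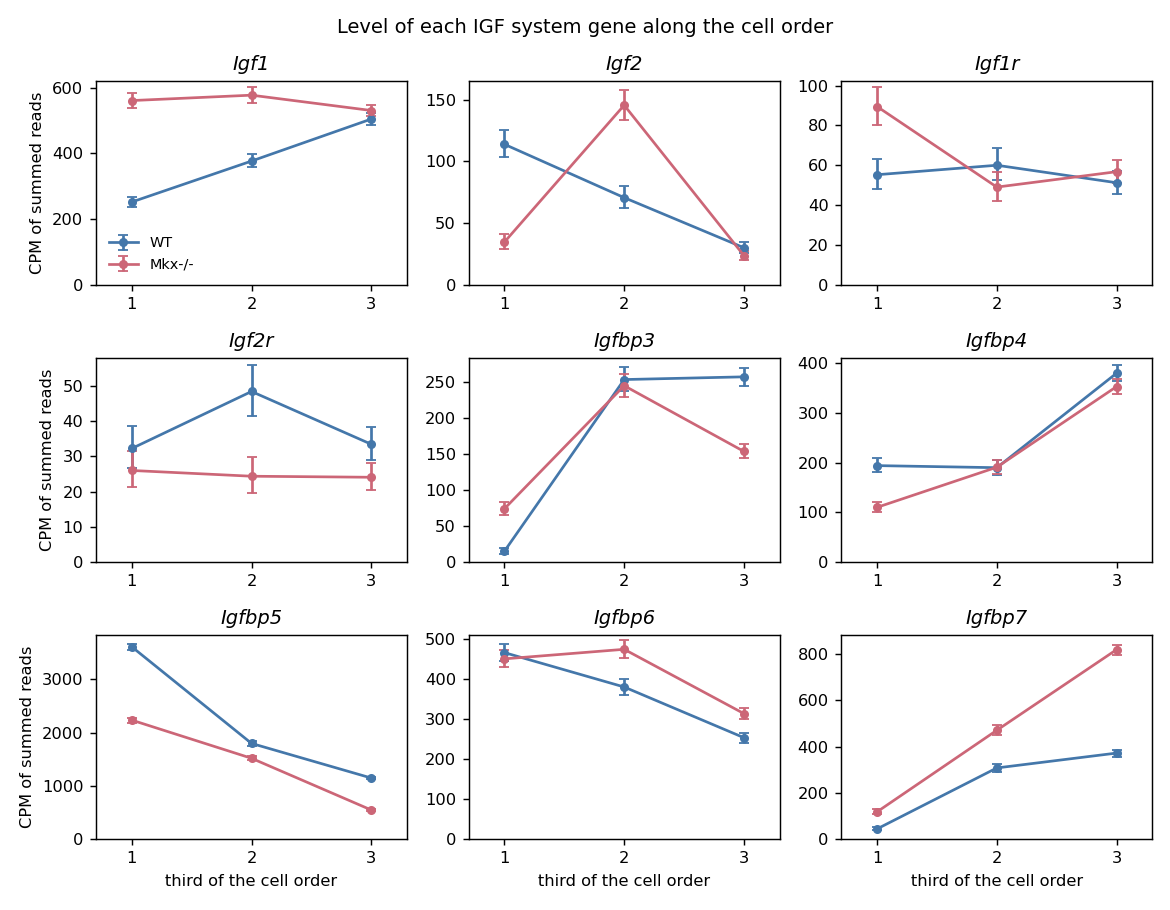
Summed level in CPM of 9 genes in the first, middle and last part (3 equal parts) of the cells of each genotype along the diffusion pseudotime; bars are exact Poisson intervals and scales differ between panels. Igfbp5 is lower and Igfbp7 higher in each later part in both genotypes, while Igf1 stands at 252 CPM in the first and 504 CPM in the last part in WT and between 530.1 and 577 CPM in Mkx-/- cells.

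Ligand and receptor reads were looked for in the same cells. Both Igf1 and Igf1r had a read in 57 of 227 WT cells (25.1%, 19.6 to 31.3) against 95 of 224 Mkx-/- cells (42.4%, 35.9 to 49.2). Igf1 without Igf1r was found in 51.1% and 52.7%, and neither gene in 15% (10.6 to 20.3) and 3.12% (1.27 to 6.33). In WT the share with both was 20% of TPC-like, 15.1% of Itm2a-high and 39.2% of TC-like cells, and in Mkx-/- cells it was 40.4%, 44% and 43.8%. These shares were taken without thinning and depend on the share of cells with each gene alone. Whether both genes met in a cell more often than their separate shares give was not tested. The shares also depend on depth, which was greatest in TC-like cells (medians of 82854 reads in WT and 72897 in Mkx-/-). Igf2 and Igf2r were found together in 5.29% and 4.46% of cells. Of the 6 binding proteins, the median cell held reads of 4 in either genotype, and 0 cells held fewer than 2, which allows a share of up to 1.32% in WT and 1.34% in Mkx-/- (3 cells). Reads of 5 binding proteins were found in 74.3% (62.8 to 83.8) of WT and 51.2% (39.8 to 62.6) of Mkx-/- TC-like cells, but in 8% (3.52 to 15.2) and 20.2% (12.6 to 29.8) of TPC-like cells.

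The genes whose levels across cells were most like those of each member were named by Spearman's rho, taken within each genotype over 227 and 224 cells among 4711 genes found in no fewer than 20% of cells in each genotype. The 3 genes with the highest value in the genotype where it was lower are given. All points of a genotype share its library preparation and differ in depth, and no p is given. Cells of all clusters were pooled, and how far rho reflects differences between clusters was not tested. Except for pairs of members, no rho within clusters is given. Igfbp5 was most like Fbn1 (0.48 in WT and 0.51 in Mkx-/-), Cd34 (0.49 and 0.47) and Mfap5 (0.47 and 0.51), that is, the microfibril gene fibrillin-1, a progenitor surface marker and a microfibril-associated gene. Igfbp7 was most like Mgp (0.62 and 0.71), Comp (0.59 and 0.67) and Cxcl14 (0.56 and 0.61), the first of these an inhibitor of calcification and the second a matrix protein of cartilage and tendon. Igfbp3 was most like Mgp (0.48 and 0.28), Igfbp7 (0.54 and 0.26) and Chrdl1 (0.35 and 0.25). Igfbp4 was most like Col1a1 (0.36 and 0.39), Kera and Fkbp9, and Igfbp6 like Ly6a (0.31 and 0.35), Plac9a and Tppp3. Igf1 was most like Col6a1 (0.29 and 0.21), Thbs4 and Nfia. The values for Igf1r (Sdf2, Mfap3 and Ankrd13c) and Igf2r (Cflar, Copa and Gm27219) were at most 0.23 in either genotype. Igf2 and Igfbp2 were in too few cells to enter.

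Between members rho was also taken within the clusters. Igfbp5 and Igfbp7 had a rho of -0.35 in WT and -0.34 in Mkx-/- cells over all clusters, and of -0.08 and 0.21 within TPC-like, -0.25 and 0.11 within Itm2a-high, and -0.05 and -0.28 within TC-like cells. Igfbp3 and Igfbp7 had a rho of 0.54 and 0.26 over all cells, and of 0.10 and 0.17 within TPC-like, 0.41 and 0.22 within Itm2a-high, and 0.35 and 0.08 within TC-like cells. Igf1 and Igf1r had a rho of -0.02 and 0.04.

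The proteases that free IGF from its binding proteins, and their inhibitors, were followed as a list of 7 genes, of which 4 held at least 100 reads. Pappa, which encodes PAPP-A, stood at 1.39 CPM (0.839 to 2.18) in WT against 11.7 CPM (10.02 to 13.7) in Mkx-/-, a ratio of 3.07 (2.39 to 3.84). Only 19 reads lay behind the WT value, and Pappa reads were seen in 2.20% and 7.59% of cells, with 47.4% of the WT reads in 1 cell. Adamts1, a secreted metalloproteinase, stood at 147.8 and 264 CPM, a ratio of 0.83 (0.76 to 0.91), and was 0.54, 0.94 and 0.94 in TPC-like, Itm2a-high and TC-like cells. Htra1, a serine protease of matrix and binding proteins, stood at 843 and 718 CPM (-0.23, -0.27 to -0.19). Its ratio was not of the same sign in the clusters, at -0.20 in TPC-like, 1.06 in Itm2a-high and -0.42 in TC-like cells. Htra1 was 7.58-fold higher in TC-like than in TPC-like cells in WT and 6.52-fold in Mkx-/-. Ctsd, the lysosomal protease cathepsin D, stood at 379 and 390.2 CPM (0.04, -0.01 to 0.10). The inhibitors Stc1 and Stc2 and the protease Pappa2 held 18, 9 and 9 reads in WT and 2, 11 and 4 in Mkx-/-.

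Downstream of the receptor, 44 signalling genes were listed and 39 held at least 100 reads. Their median log2 ratio over all cells was 0.19, beside 0.05 for all genes, with 25 higher and 14 lower in Mkx-/- cells, where 55.1% of all genes were higher. Of the 39, 0 were past 2-fold in either direction, where 7.23% of all genes were higher and 6.12% lower. The highest ratios were those of Rictor (0.91, 0.69 to 1.13), a subunit of the mTORC2 complex, Sos2 (0.74, 0.56 to 0.92), an exchange factor for RAS, and Map2k2 (0.69, 0.55 to 0.82), a MAPK kinase. The lowest were those of Braf (-0.70, -0.93 to -0.47), Mapk3 (-0.68, -0.96 to -0.41) and Tsc2 (-0.66, -1.05 to -0.28), a kinase of the RAS route, the kinase ERK1 and an inhibitor of mTORC1. Proteases and signalling genes together gave 43 genes with a median of 0.19, of which 28 were higher and 15 lower, and 1 (Pappa) was past 2-fold. In TC-like cells the median of the signalling genes was 0.35 beside 0.20 for all genes. In TPC-like cells it was 0.08 and in Itm2a-high cells -0.13. Past 2-fold, 2 of 37 genes were higher and 1 lower in TPC-like cells (8.19% and 7.42% of all genes), 2 of 32 higher and 3 lower in Itm2a-high cells (11.3% and 9.54%), and 3 of 35 higher and 1 lower in TC-like cells (14.1% and 6.71%). The sign of Rictor was not the same in the clusters: it stood at 14.9 CPM in WT against 50.2 CPM in Mkx-/- TPC-like cells (1.76, 1.38 to 2.15), at 14.6 and 36.3 CPM in TC-like cells (1.31, 0.96 to 1.67), but at 43.1 and 10.1 CPM in Itm2a-high cells (-2.09, -2.80 to -1.44). These levels rested on few reads, namely 74 and 244 in TPC-like, 93 and 251 in TC-like, and 99 and 24 in Itm2a-high cells. Sos2 was higher in TPC-like cells (25.5 and 83.4 CPM; 1.71, 1.42 to 2.01), while its intervals in Itm2a-high and TC-like cells spanned 0. Whether these ratios differed between clusters was not tested.

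Of 11 relatives of the system, 6 held at least 100 reads and 3 (Igfbp1, Igfals and Insrr) held 0. Insr, the insulin receptor, stood at 13.6 CPM in WT against 5.80 CPM in Mkx-/- (-1.23, -1.62 to -0.84). By cluster its ratio was -2.45 in TPC-like, 0.39 in Itm2a-high (14 and 19 reads) and -0.58 in TC-like cells. Igf2bp2, an RNA-binding protein named for Igf2 mRNA, stood at 14.9 and 7.21 CPM (-1.05, -1.40 to -0.70), and Igf2bp3 at 6.68 and 9.83 CPM (0.56, 0.17 to 0.96). Igf2bp3 went opposite ways in the clusters. In WT and Mkx-/- it held 54 and 50 reads in TPC-like, 33 and 0 in Itm2a-high, and 4 and 89 in TC-like cells. H19, the imprinted non-coding neighbour of Igf2, stood at 14.4 and 2.90 CPM (-2.31, -2.83 to -1.82) with a read in 4.85% and 5.36% of cells. Ghr, the growth hormone receptor that drives Igf1 in liver, stood at 39.3 and 56.5 CPM (0.53, 0.37 to 0.69), and Kazald1, a secreted protein with an IGF-binding domain, at 41.2 and 47.2 CPM (0.20, 0.03 to 0.36). Of these 6, 3 were thus past 2-fold lower, where 6.12% of all genes were, and their reads lay in 4.85% to 15.4% of the cells of a genotype. The filter is on the reads of both genotypes together, so a gene can pass it through the genotype where it is high. The share over all genes also covers genes with far more reads. No excess among the relatives can be read from these values.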

How the data were processed

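Raw read counts per gene and cell were deposited by the authors for 451 cells. In the study's methods, reads were cleaned with AfterQC and NGSQCToolkit, mapped with bowtie2 to mm9 and counted with featureCounts. The submitters' processing notes name mm10 instead, so positions here are those of RefSeq on GRCm38, where 34106 of the 48795 symbols were found. Exon lengths are from GENCODE M1. Strand and treatment of reads with several positions are not given in the sources used here, so antisense partners (Igf1os with 1 read and Igf2os with 13) cannot be told apart from Igf1 and Igf2. bowtie2 does not split reads over introns. All columns were used (0 left out) and 0 pairs of cells were identical.

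Counts were summed per genotype, or per genotype and cluster, and divided by all reads of the sum (CPM). Sums have exact Poisson, ratios exact conditional binomial and shares exact Clopper-Pearson intervals, at 95%. These cover counting error of reads, which are not unique molecules. Counts of genes past 2-fold and medians over genes used only genes with at least 100 reads over the groups compared. Some ratios of single genes within a cluster rest on fewer reads, as for Insr in Itm2a-high cells. No ratio was formed where both groups held 3 reads or fewer. With 1 sample per genotype no test was made. The intervals were checked on simulated data.

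Cells were clustered with Seurat 5.3.0 (R 4.3.3) on 1693 variable genes and 4 aligned dimensions, at resolution 0.3, the highest of those tried from 0.4 down that gave the 3 clusters of the study. The clusters were rebuilt and need not hold the study's cells. Submitters left out wells with no or several cells, and no doublet caller was run. The order came from scanpy 1.11.5 on the 1000 most variable genes, without the listed genes and Spp1, Ogn, Mgp and Comp, starting at the cell with the highest TPC markers. Shares of cells with a read were also taken after thinning each cell to 28000 reads.

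All 10 genes are described, the proteases, inhibitors and relatives with 100 reads, and the 3 highest and 3 lowest signalling genes. Members and lists were chosen with earlier results of these data known. Leaving out wells with other cell types' markers, and the resolution of 0.4, were added as alternatives after seeing the data.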

Additional observations from a re-analysis of the deposited data

Results flagged for a closer look

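Igfbp3 and Ctsd had ratios of opposite sign in TPC-like and TC-like cells, with intervals clear of 0 in both. The log2 ratio of Igfbp3 was 1.85 (1.49 to 2.22) in TPC-like and -0.85 (-0.96 to -0.74) in TC-like cells. That of Ctsd was -0.20 (-0.29 to -0.12) and 0.38 (0.28 to 0.47). The difference between clusters was not tested for either gene, the intervals cover counting error only, and of the 7336 genes with at least 100 reads in each of these clusters 1515 (20.7%) showed such an opposition.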

How the results depend on the processing

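Of 87 alternative values for the summaries over the genes, 72 stayed within the set limits, 15 moved and 0 reversed, and of 387 values for single genes 285 stayed, 99 moved and 3 reversed. The cause of these shifts was not tested. Over all cells the median of the 9 genes (-0.11) was -0.33 with each cell weighted equally, 0.22 in cells with at least 2500 genes and 0.14 after thinning. Igfbp7 lay at the 2-fold limit: 0 genes were past 2-fold higher with each cell weighted equally, with the library size taken without Col1a1, Col1a2 and Sparc, and with median-of-ratios scaling. With each cell weighted equally the median was -0.046 in TPC-like cells (0.04 as reported) and -0.18 in TC-like cells (-0.06), where it was also -0.18 without the wells holding markers of another cell type. In Itm2a-high cells (0.11) it was 0.27 with 10 dimensions and 0.41 without the leading cells. Between TC-like and TPC-like Mkx-/- cells 2 genes in place of 1 were past 2-fold lower with 10 dimensions and without the leading cells. The median share of cells with a gene's reads was 50.7% in WT and 46.9% in Mkx-/- cells when at least 2 reads were required (59.7% and 59.2% with 1). In Itm2a-high cells Igfbp4 was 0.20 and Igfbp5 0.020 with the listed genes kept in the clustering, and Igf1 was 0.0098 between TC-like and TPC-like Mkx-/- cells without the wells holding other markers. No paired analysis was possible because no label gives the animal or chip of a cell, and no number pairs cells across genotypes.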
